A study of Homo sapiens with 15 samples.

Results

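DNA methylation is written, copied and removed by a small set of enzymes, and 8 of them were followed across 15 libraries of differentiating H9 cells, a line of human embryonic stem cells. The 8 genes were DNMT3A, DNMT3B, DNMT3L, DNMT1, UHRF1, TET1, TET2 and TET3. They were picked by name, with earlier results of these data known, and found by their Ensembl identifiers among the 60675 genes listed. The filter on low counts kept 7 of them among 19012 genes tested, and DNMT3L fell under it.

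DNMT3A and DNMT3B place methyl groups on CpG sites that carry none, and DNMT3L, which has no catalytic activity of its own, assists them in germ cells. DNMT1 copies the methylation of the old DNA strand onto the new strand after replication, and UHRF1 recognises the CpG sites that are methylated on the old strand only and brings DNMT1 to them. TET1, TET2 and TET3 oxidise methylcytosine, and base excision repair can then replace the oxidised base with plain cytosine. Human pluripotent cells are known for high DNMT3B and TET1 expression, and DNMT3B is known to decline as such cells differentiate.

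Cultures were exposed to particles from day 0 and were collected on day 7. They were first left to differentiate in serum medium, and vitamin D3, β-glycerophosphate and ascorbic acid were added from day 5 to direct them toward bone. The 5 groups held 3 libraries each. FPM_IC25 and FPM_IC50 received fine particulate matter at 0.00062 and 1.4 µg/mL, and SRM_IC25 and SRM_IC50 received a NIST standard reference material at 0.003 and 5.9 µg/mL. The names stand for concentrations set by inhibition on a protein basis, so that matched levels of the particles differ in mass dose. UNT received the vehicle, 0.1% DMSO. All groups were wild type and came from the same cell line. Nothing in the labels tells whether replicates came from separate cultures, so p-values measure the spread between these libraries, which may be technical.

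Polyadenylated RNA was sequenced and counted per gene, with 9.34 to 58.2 M counts per library (M, 1000000). Osteoblast markers were checked first. IBSP, which encodes bone sialoprotein, had 0 or few counts in every group, with 0.0504 and 0.061 CPM in the libraries that held any (CPM, counts per 1000000 after TMM scaling between libraries). BGLAP, which encodes osteocalcin, stayed between 0.0509 and 0.543 CPM, so these 2 late markers were near 0 in the day 7 cultures. The other 6 genes of the osteoblast list were high enough to test, and the 8 summed to 668 to 805 CPM at SRM_IC50, against 538 to 663 CPM in UNT. The sum hides mixed directions: of the 6 tested genes 1 was higher there and 2 were lower (adjusted p under 0.05, edgeR). Their median log2 fold change was -0.10. The 6 FPM libraries stood apart from the rest: genes annotated as antisense took 0.942% to 1.5% of their counts, against 0.274% to 0.319% in the other 9.

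All 8 are protein-coding genes in GENCODE release 29 on GRCh38. The writers are DNMT3A at chr2:25227855-25342590 (minus strand), DNMT3B at chr20:32762385-32809356 (plus strand) and DNMT3L at chr21:44246339-44262216 (minus strand). The maintenance genes are DNMT1 at chr19:10133345-10231286 (minus strand) and UHRF1 at chr19:4903080-4962154 (plus strand). The erasers are TET1 at chr10:68560656-68694482 (plus strand), TET2 at chr4:105145875-105279816 (plus strand) and TET3 at chr2:73986404-74108176 (plus strand). Few exonic bases of the members lie opposite another gene. DNMT3A, DNMT3B and TET1 have no gene on the other strand within 5 kb in GENCODE release 29, and UHRF1 has ARRDC5 within that distance only. DNMT1, TET2 and TET3 share gene bodies with opposite genes but 0 exonic bases. DNMT3L alone overlaps an opposite gene's exons, by 241 bases of DNMT3L-AS1, which is 13% of its exonic length. On the same strand, 83 exonic bases of DNMT1 also belong to S1PR2, a lipid receptor gene whose level at SRM_IC50 differed from UNT by 0.04 on the log2 scale (adjusted p = 0.817, edgeR). The processed pseudogenes DNMT3AP1 and TET1P1 had 0 counts in every library.

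Sequence around a listed transcription start is shown for the 4 members that changed at SRM_IC50, since CpG sites are what these enzymes act on. RefSeq windows on GRCh38.p14, each 250 bases before to 50 bases after a listed start, were found for 7 of the 8 members, 18 windows in all, and none was listed for DNMT3L. The first listed window of each of the 4 genes is printed 5′ to 3′ on the gene's own strand, with every CpG in capitals. The windows are DNMT3B at chr20:32779602-32779901 (plus strand), DNMT3A at chr2:25342434-25342733 (minus strand), UHRF1 at chr19:4909251-4909550 (plus strand) and TET2 at chr4:105145625-105145924 (plus strand).
DNMT3B: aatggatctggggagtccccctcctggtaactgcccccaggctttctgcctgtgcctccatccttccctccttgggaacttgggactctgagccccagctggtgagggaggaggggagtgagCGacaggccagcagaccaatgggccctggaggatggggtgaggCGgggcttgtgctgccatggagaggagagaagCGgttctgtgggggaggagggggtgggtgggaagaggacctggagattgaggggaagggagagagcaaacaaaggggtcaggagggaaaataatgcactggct
DNMT3A: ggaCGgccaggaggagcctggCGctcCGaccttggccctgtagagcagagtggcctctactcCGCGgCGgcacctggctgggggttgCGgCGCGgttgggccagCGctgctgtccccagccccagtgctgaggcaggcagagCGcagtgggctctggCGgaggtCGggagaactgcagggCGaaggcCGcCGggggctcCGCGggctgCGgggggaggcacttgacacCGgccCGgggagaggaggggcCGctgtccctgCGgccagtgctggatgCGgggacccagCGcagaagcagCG
UHRF1: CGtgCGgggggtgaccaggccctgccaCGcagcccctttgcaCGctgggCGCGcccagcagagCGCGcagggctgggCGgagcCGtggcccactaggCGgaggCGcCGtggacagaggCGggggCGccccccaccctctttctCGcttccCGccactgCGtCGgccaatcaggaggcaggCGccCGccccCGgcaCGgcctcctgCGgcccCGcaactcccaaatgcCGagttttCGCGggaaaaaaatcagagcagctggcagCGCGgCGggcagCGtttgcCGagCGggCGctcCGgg
TET2: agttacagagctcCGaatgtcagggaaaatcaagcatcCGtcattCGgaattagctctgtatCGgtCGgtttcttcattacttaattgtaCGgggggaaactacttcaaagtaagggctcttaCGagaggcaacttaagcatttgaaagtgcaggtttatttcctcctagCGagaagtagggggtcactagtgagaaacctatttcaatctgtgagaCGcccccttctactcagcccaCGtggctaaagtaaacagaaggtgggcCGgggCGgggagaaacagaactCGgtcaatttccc

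The UHRF1 window held 36 CpG sites and the DNMT3A window 26, against a median of 14 over all 35116 RefSeq windows of this length. The TET2 window held 13, near that median, but the second window listed for TET2, with its start 1001 bases further in, held 35. The 6 windows listed for DNMT3A held 18 to 46, and the other windows of UHRF1 held 40 and 46. The only window listed for DNMT3B held 3, and the sequence at the outer end of that gene was not examined. Not all listed starts are at the gene's outer end as GENCODE release 29 draws it: that of DNMT3B lies 17467 bases inside the gene and that of UHRF1 6421 bases inside, while DNMT1, not printed, has its listed start 36333 bases inside. These are letters of the reference genome: methylation was not measured, and gene counts do not show which start was used. Motifs of the E2F type, associated with S-phase genes, were searched on both strands as TTCCCGC and TTCGCGC. UHRF1 had the first spelling in the window shown and the second in its next listed window, DNMT1 had the second spelling, and TET3 had the first. No listed window of DNMT3A, DNMT3B, TET1 or TET2 held either spelling, but the outer end of DNMT3B was not among them. Of all windows, 8.54% held at least 1 of the spellings. That share is per window, while the members had 1 to 6 windows each, so it is not a share per gene. Both spellings contain a CpG, and the member windows with a spelling held 30 to 45 CpG sites.

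Levels per length, in FPKM (counts per kilobase of exon and 1000000 counts), put the members in the same order of means in all 5 groups. DNMT3B was highest, followed by DNMT1, UHRF1, DNMT3A, TET1, TET3 and TET2, with DNMT3L last. Mean FPKM of DNMT3B was 25.1 at FPM_IC25, 27 at FPM_IC50, 24.7 at SRM_IC25, 64.7 at SRM_IC50 and 25.1 in UNT. DNMT1 followed with means of 22.8, 22, 22.4, 24 and 20.1 FPKM in those groups.

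Some neighbours in that order did not separate. The FPKM ranges of DNMT3B and DNMT1 overlapped at FPM_IC25, at SRM_IC25 and in UNT, and lay apart at FPM_IC50 and SRM_IC50. DNMT1 overlapped UHRF1 at SRM_IC50, where DNMT1 ranged from 19.8 to 27.7 FPKM and UHRF1 from 16.2 to 20.5 FPKM. DNMT3A overlapped TET1 in UNT. Within each single library, however, the higher gene of every such pair was above the lower one in all 3 replicates.

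**Figure D1:**
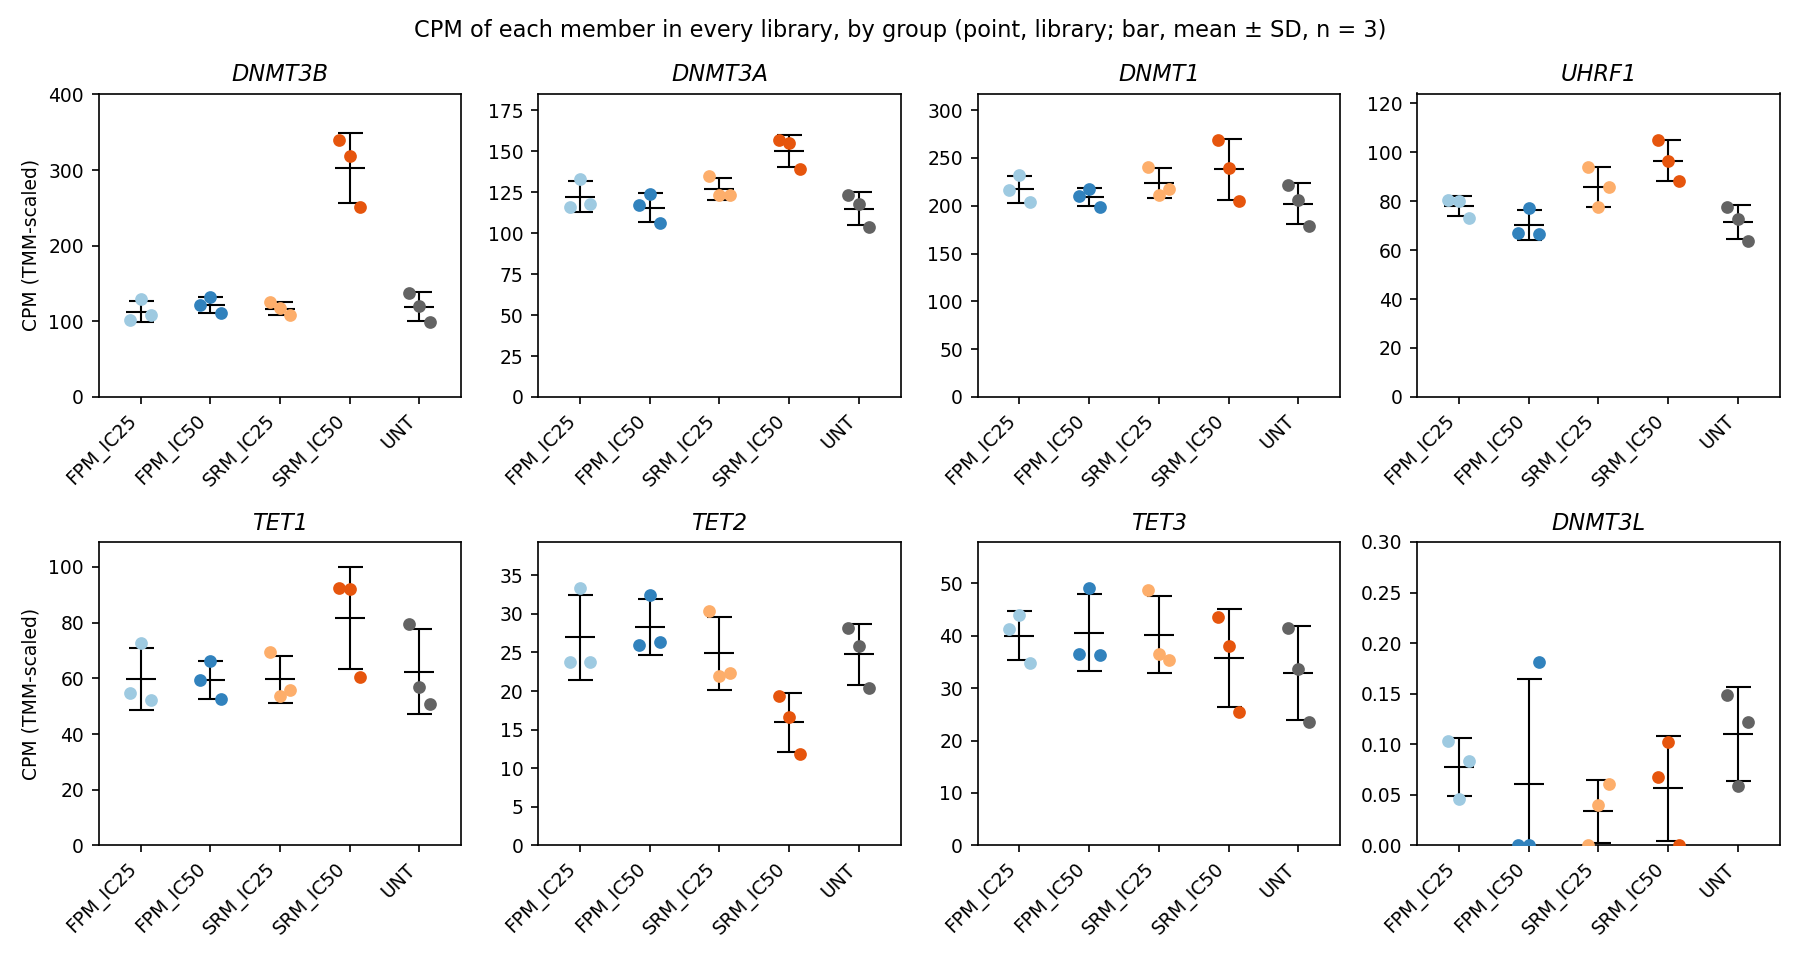
CPM of the 8 members in each library, grouped on the horizontal axis, with the group mean and SD (n = 3) as a bar and each panel on its own linear axis from 0. DNMT3B stands out at SRM_IC50 (251 to 340 CPM, against 99.5 to 138 CPM in UNT), TET2 is lowest there (11.8 to 19.4 CPM, against 20.4 to 28.1 CPM in UNT), and DNMT3L is at or near 0 throughout.

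At the high dose of the reference material both de novo writers and UHRF1 rose and 1 eraser fell. DNMT3B was 2.54 times its UNT level, DNMT3A 1.31 times and UHRF1 1.35 times, while TET2 was at 0.65 of its UNT level. DNMT1, TET1 and TET3 did not pass the test. In all, 4 of the 7 tested members passed an adjusted p of 0.05 in edgeR's quasi-likelihood test, 3 higher and 1 lower. The TET2 call was lost in 4 of 6 fits with single libraries left out, and the other 3 calls in none. Of all 19012 genes tested, 17.6% passed in this comparison, 7.96% higher and 9.59% lower. The members were chosen with earlier results of these data known, so these shares are not an independent contrast. The groups did not overlap for the same 4 members, and for 29.7% of all genes.

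DNMT3B, the de novo methyltransferase most typical of early embryonic cells, had 340, 318 and 251 CPM at SRM_IC50, against 138, 120 and 99.5 CPM in UNT. All 3 exposed libraries lay far above all 3 controls, and the lowest of them was still well above the highest control. The log2 fold change was 1.35 (SE 0.13, 95% interval 1.06 to 1.63, adjusted p = 2.80e-06, edgeR).

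The change of DNMT3A, the other de novo enzyme, was smaller. It had 157, 155 and 139 CPM at SRM_IC50 and 123, 118 and 104 CPM in UNT, so that the groups did not overlap. Its log2 fold change was 0.39 (SE 0.0908, 95% interval 0.19 to 0.58, adjusted p = 0.00655, edgeR). DNMT3B had 5.22 ± 0.469 times the FPKM of DNMT3A at SRM_IC50, against 2.68 ± 0.214 times in UNT (SD, n = 3 each), with no overlap between the groups.

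DNMT3L was not detectable as a changed gene at this depth. It had 2, 2 and 0 counts in the SRM_IC50 libraries and 3, 1 and 2 counts in the UNT libraries, and between 0 and 5 counts in any library of the series. Counts of 0 allow up to 3 counts, which is 0.0504 to 0.309 CPM depending on the library. PCR reads carry no molecular identifiers here, so this limit covers counting error only.

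Of the maintenance pair, UHRF1 passed the test and DNMT1 did not. UHRF1 had 105, 96.2 and 88.3 CPM at SRM_IC50, against 77.7, 72.8 and 63.8 CPM in UNT, and each exposed library was above each control. Its log2 fold change was 0.43 (SE 0.10, 95% interval 0.22 to 0.65, adjusted p = 0.00587, edgeR).

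DNMT1 had 269, 240 and 205 CPM at SRM_IC50 and 222, 206 and 179 CPM in UNT. The groups overlapped, because the lowest exposed library lay below the highest 2 controls. The log2 fold change was 0.23 with a 95% interval of 0.01 to 0.46 (adjusted p = 0.148, edgeR), an interval that overlaps that of UHRF1. With single libraries left out, DNMT1 passed in 1 of 6 fits (adjusted p = 0.0285, edgeR). Taken within each library, the FPKM ratio of UHRF1 to DNMT1 was 0.742, 0.764 and 0.818 at SRM_IC50, against 0.667, 0.674 and 0.677 in UNT. The 3 exposed ratios were all above the 3 control ratios, although a two-sided exact permutation test of 3 against 3 cannot go below 0.1.

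Among the erasers, TET2 had 19.4, 16.6 and 11.8 CPM at SRM_IC50, against 28.1, 25.8 and 20.4 CPM in UNT. The groups did not overlap, but the gap between the highest exposed and the lowest control library was small. The log2 fold change was -0.62 (SE 0.19, 95% interval -1.02 to -0.22, adjusted p = 0.033, edgeR). The call was lost without SRM_IC50 replicate 2 (adjusted p = 0.0832), SRM_IC50 replicate 3 (0.104), UNT replicate 1 (0.111) or UNT replicate 2 (0.102) in edgeR, with fold changes between -0.63 and -0.45.

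TET1, the main TET enzyme of pluripotent cells, had 92.3, 91.9 and 60.6 CPM at SRM_IC50, against 79.5, 56.9 and 50.6 CPM in UNT. The third exposed library sat among the controls, and the fold change of 0.39 had a 95% interval of -0.01 to 0.79 (adjusted p = 0.185, edgeR). Without SRM_IC50 replicate 3 the log2 fold change of TET1 was 0.57 (adjusted p = 0.0317), and without UNT replicate 1 it was 0.61 (adjusted p = 0.0364, edgeR). TET3 had 43.6, 38.1 and 25.4 CPM at SRM_IC50 and 41.5, 33.6 and 23.5 CPM in UNT, with overlapping groups and a log2 fold change of 0.13 (95% interval -0.32 to 0.58, adjusted p = 0.767, edgeR).

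**Figure D2:**
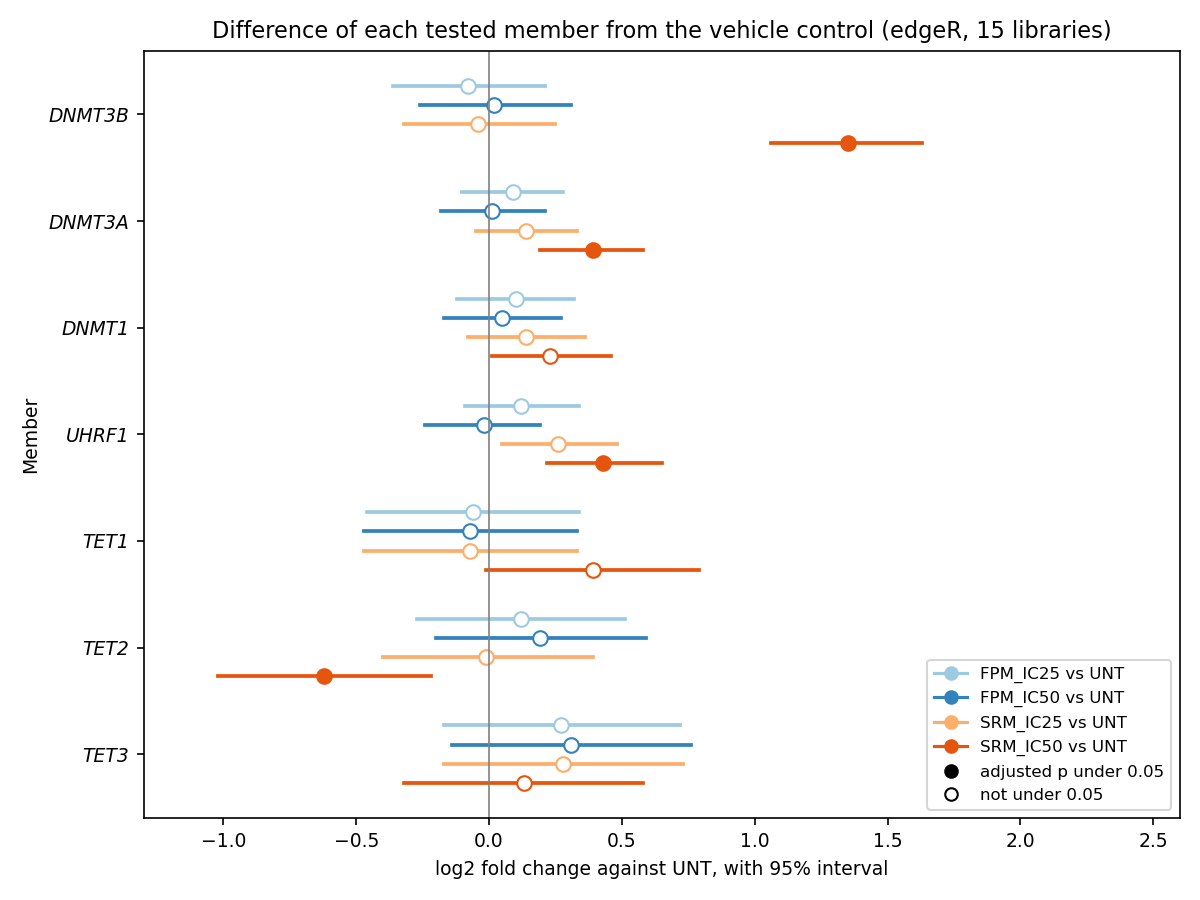
Log2 fold change of each tested member in each exposure against UNT, with its 95% interval; filled points passed an adjusted p of 0.05 (edgeR, 15 libraries) and open points did not. Filled points occur at SRM_IC50 only: DNMT3B (1.35), UHRF1 (0.43) and DNMT3A (0.39) to the right of 0 and TET2 (-0.62) to the left. The TET2 call was lost in 4 of 6 fits with single libraries left out.

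In the control group and in SRM_IC50 alike, the members moved together from library to library. Replicate 1 was the highest and replicate 3 the lowest of its group for 7 of 7 tested members, both at SRM_IC50 and in UNT. SRM_IC25 replicate 1 and FPM_IC50 replicate 2 were also highest for 7 of 7. How many of all tested genes ranked the same way was not counted, so this is not shown to be particular to the members. Over all tested genes, deviations of SRM_IC50 and UNT from their group means correlated at 0.382, 0.019 and 0.438 for replicates 1, 2 and 3. Shares within a library remove a shift of equal size in the genes compared, but not one that differs by gene. In UNT the share of DNMT3B given below still fell from replicate 1 to replicate 3.

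DNMT3B made up 64.4%, 64.8% and 62.6% of the summed FPKM of DNMT1, DNMT3A and DNMT3B at SRM_IC50, against 47.6%, 45.7% and 44.3% in UNT. It made up 42.9% ± 1.73 at FPM_IC25, 45.8% ± 0.826 at FPM_IC50 and 43% ± 1.24 at SRM_IC25 (SD, n = 3 each). The SRM_IC50 libraries were thus above every other library of the series, and the other 4 groups lay within a few percentage points of each other.

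Within the TET family, the share of TET1 was higher and that of TET2 lower. TET2 made up 8.01%, 7.19% and 7.68% of the summed TET FPKM at SRM_IC50, against 12.5%, 15% and 14.4% in UNT. TET1 made up 67.8%, 70.6% and 70.1% at SRM_IC50, against 62.7%, 58.7% and 63.3% in UNT. Neither share overlapped between these groups, for which 0.1 is again the smallest exact p, and the libraries of SRM_IC50 were closer to each other in these shares than in CPM. The FPKM of DNMT3B was 62.5, 68.2 and 75.9 times that of TET2 at SRM_IC50, against 17.5, 16.6 and 17.3 times in UNT.

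**Figure D3:**
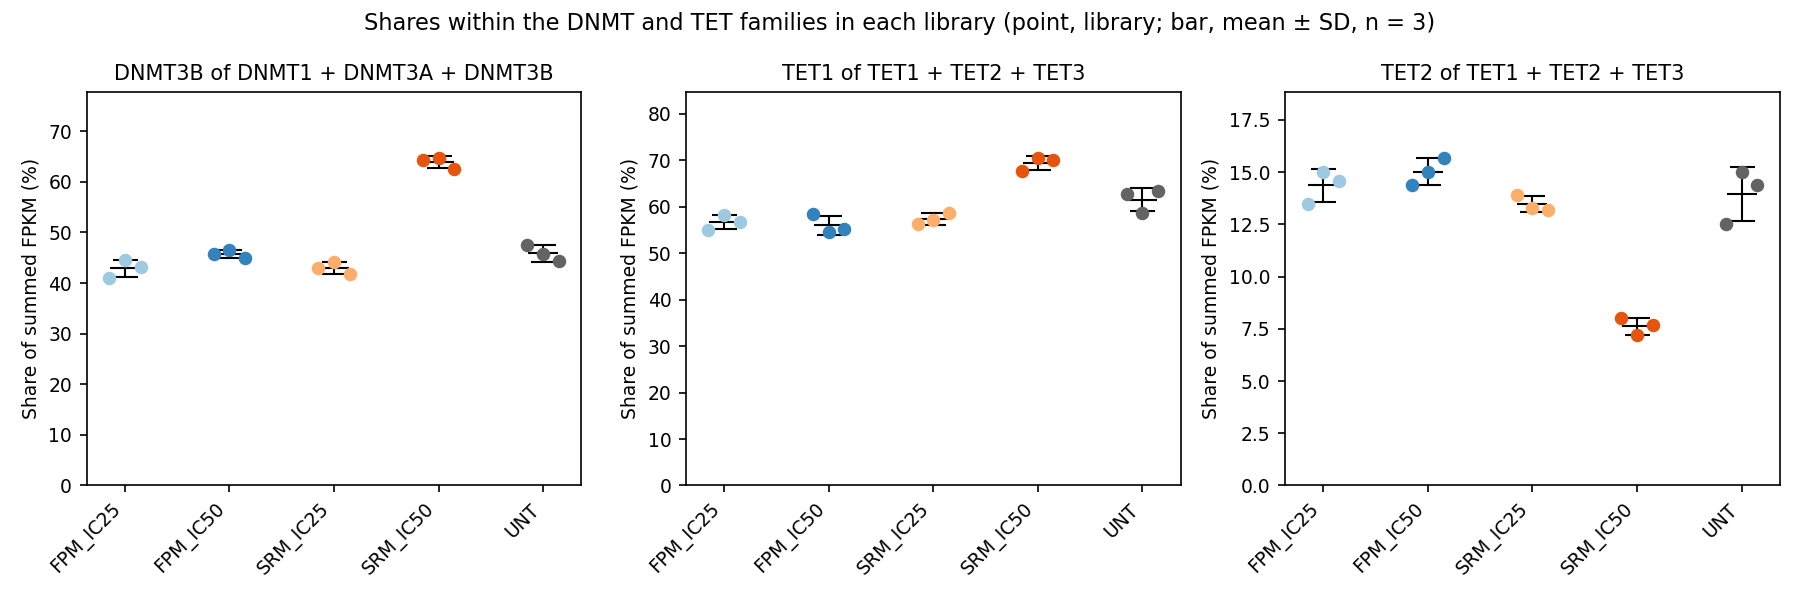
Share of the summed FPKM taken by DNMT3B among DNMT1, DNMT3A and DNMT3B, and by TET1 and TET2 among the 3 TET genes, in each library, with group mean and SD (n = 3). SRM_IC50 stands apart in all 3 panels, with DNMT3B at 63.9%, TET1 at 69.5% and TET2 at 7.63% on average, against 45.9%, 61.6% and 14% in UNT.

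At the low dose of the reference material no member passed the test. The count was 0 of 7 at SRM_IC25 against UNT, where 4.37% of all tested genes passed, and every member's groups overlapped, while for 25.6% of all genes they did not. Over the 4245 genes with no gene on the other strand within 5 kb, 1.25% passed. At an unadjusted p under 0.05 the count was 1, and DESeq2 gave 0. The smallest adjusted p was 0.135, for UHRF1, which had 93.9, 77.6 and 85.9 CPM at SRM_IC25 and 77.7, 72.8 and 63.8 CPM in UNT. Its log2 fold change was 0.26 (95% interval 0.05 to 0.48, edgeR), so that most of the exposed libraries were above the controls, with 1 within their range.

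DNMT3B had 125, 117 and 108 CPM at SRM_IC25, inside the range of the UNT libraries. The log2 fold change was -0.04 with a 95% interval of -0.32 to 0.25. DNMT3A was at 0.14 (-0.05 to 0.33), DNMT1 at 0.14 (-0.08 to 0.36), TET2 at -0.01 (-0.40 to 0.39), TET1 at -0.07 (-0.47 to 0.33) and TET3 at 0.28 (-0.17 to 0.73) on the log2 scale.

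Set directly against the low dose, SRM_IC50 had more DNMT3B and less TET2. Of the 7 members these 2 passed, 1 higher and 1 lower, where 26.9% of all tested genes did, 13.7% higher and 13.2% lower. The log2 difference of DNMT3B was 1.38 (SE 0.13, adjusted p = 1.65e-06, edgeR), with 340, 318 and 251 CPM at SRM_IC50 and 125, 117 and 108 CPM at SRM_IC25. All libraries of the high dose were above all of the low dose.

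TET2 had 19.4, 16.6 and 11.8 CPM at SRM_IC50 and 30.3, 22 and 22.3 CPM at SRM_IC25, without overlap. The log2 difference was -0.61 (SE 0.19, adjusted p = 0.0252, edgeR). That call was lost without SRM_IC25 replicate 1 (log2 difference -0.45, adjusted p = 0.109), SRM_IC50 replicate 2 (-0.63, 0.0615) or SRM_IC50 replicate 3 (-0.46, 0.0771). DNMT3A also had groups that did not overlap, with a log2 difference of 0.25 that missed the threshold (adjusted p = 0.055, edgeR) and passed without SRM_IC50 replicate 3 (0.30, adjusted p = 0.0324). Groups did not overlap for 3 of the 7 members, as for 37.7% of all tested genes.

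UHRF1 did not pass between the SRM doses: the log2 difference was 0.17 with a 95% interval of -0.04 to 0.38 (adjusted p = 0.23, edgeR). TET1 was at 0.46 (adjusted p = 0.0817), and at 0.63 (adjusted p = 0.0134) without SRM_IC50 replicate 3. DNMT1 was at 0.09 and TET3 at -0.15, with adjusted p of 0.56 and 0.656 in edgeR.

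Fine particulate matter moved none of the members past the threshold at either dose. At FPM_IC25 0 of 7 members passed, where 14.2% of all tested genes did, and at FPM_IC50 0 of 7 passed, where 13.6% did. Over the 4245 genes with no gene on the other strand within 5 kb, to which DNMT3A, DNMT3B and TET1 belong, only 0.824% and 0.0236% passed in those comparisons. Every member overlapped UNT in both, where 31.4% of all genes at FPM_IC25 and 26% at FPM_IC50 did not, and the counts were also 0 at an unadjusted p under 0.05 and in DESeq2. DNMT3B had 102, 129 and 108 CPM at FPM_IC25 and 121, 132 and 111 CPM at FPM_IC50, against 138, 120 and 99.5 CPM in UNT.

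The intervals bound what these libraries could hold. For DNMT3B the log2 fold change was -0.08 (95% interval -0.36 to 0.21) at FPM_IC25 and 0.02 (-0.26 to 0.31) at FPM_IC50, so the upper bounds lie below the lower bound of 1.06 found at SRM_IC50. DNMT3A was at 0.09 (-0.10 to 0.28) and 0.01 (-0.18 to 0.21). TET2 was at 0.12 (-0.27 to 0.51) and 0.19 (-0.20 to 0.59), and the widest intervals were those of TET3, at 0.27 (-0.17 to 0.72) and 0.31 (-0.14 to 0.76).

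Between FPM_IC50 and FPM_IC25 none of the 7 members passed, where 0.0105% of all tested genes passed; at an unadjusted p under 0.05 and in DESeq2 the count was also 0. The member with the largest difference was UHRF1 at -0.14 (95% interval -0.36 to 0.07, adjusted p = 1, edgeR).

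Between the particles, 4 members passed at the IC50 level and none at the IC25 level. At IC25 the 7 log2 differences of FPM over SRM lay between -0.14 (UHRF1) and 0.13 (TET2), and 0 of 7 passed where 10.5% of all genes did (also 0 at an unadjusted p under 0.05 and 0 in DESeq2), and 0% of those with no gene on the other strand within 5 kb. At IC50, with FPM at 1.4 µg/mL and SRM at 5.9 µg/mL, 4 of 7 passed, 1 higher and 3 lower, where 39.3% of all genes did, 23.2% higher and 16.2% lower. The same 4 had groups that did not overlap, as had 46.6% of all genes.

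DNMT3B was lower at FPM_IC50 (121, 132 and 111 CPM) than at SRM_IC50 (340, 318 and 251 CPM), at -1.32 in log2 (SE 0.13, adjusted p = 8.52e-07, edgeR). DNMT3A was at -0.37 (SE 0.0911, adjusted p = 0.00358) and UHRF1 at -0.46 (SE 0.10, adjusted p = 0.00177), both lower with FPM. UHRF1 had 67.1, 77.3 and 66.4 CPM at FPM_IC50, against 105, 96.2 and 88.3 CPM at SRM_IC50. TET2 went the other way, with 26, 32.4 and 26.4 CPM at FPM_IC50 and 19.4, 16.6 and 11.8 CPM at SRM_IC50, a log2 difference of 0.81 (SE 0.19, adjusted p = 0.00279, edgeR). These comparisons share the SRM_IC50 libraries with the ones against UNT and SRM_IC25, so they are not separate evidence about them.

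The difference between particles in their dose response was tested as an interaction, the change from IC25 to IC50 with SRM minus that with FPM. It passed for 1 member, DNMT3B, at 1.28 on the log2 scale (SE 0.19, 95% interval 0.88 to 1.68, adjusted p = 0.000246, edgeR), where 14.6% of all genes passed. It did not pass for TET2 (-0.68, adjusted p = 0.102), DNMT3A (0.33, adjusted p = 0.106), UHRF1 (0.32, adjusted p = 0.163), TET1 (0.47, adjusted p = 0.277), DNMT1 (0.15, adjusted p = 0.577) or TET3 (-0.18, adjusted p = 0.757). For TET2 it passed without FPM_IC25 replicate 2 (-0.87, adjusted p = 0.047). A single F test over all 5 groups passed for DNMT3B (adjusted p = 1.93e-07), UHRF1 (0.00622), DNMT3A (0.0122) and TET2 (0.0194), as it did for 40.8% of all genes. Without SRM_IC50 replicate 2 that test passed for 2 members.

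Partners of methylation maintenance passed in the same direction as UHRF1 at SRM_IC50. Of 8 listed, 7 were tested and 4 were higher against UNT, 0 lower, with a median log2 fold change of 0.22 beside 0.00 over all tested genes. Of all tested genes 17.6% passed, 7.96% higher and 9.59% lower. This list, too, was chosen with earlier results of these data known. DNMT3B itself, ZBTB24, CDCA7 and HELLS are the genes known to be mutated in ICF syndrome, in which pericentromeric repeats lose methylation.

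CDCA7L, a relative of CDCA7, had 71.5, 71.1 and 59.3 CPM at SRM_IC50, against 42.1, 40.5 and 38.2 CPM in UNT (log2 0.74, adjusted p = 9.99e-05, edgeR). ZBTB24, a zinc finger factor known to activate CDCA7, had 31.2, 28.7 and 24.7 CPM, against 21, 19.6 and 19.1 CPM in UNT (log2 0.51, adjusted p = 0.00253, edgeR). In both genes the exposed libraries were above every control, and the call held without any single library.

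CDCA7, which recruits the remodeller HELLS, averaged 104 ± 0.973 CPM at SRM_IC50, against 89.1 ± 5.49 CPM in UNT (SD, n = 3 each; log2 0.22, adjusted p = 0.0406, edgeR). LIG1, the ligase that joins Okazaki fragments and is bound by UHRF1, was at 0.22 (adjusted p = 0.0395). These 2 calls rested on single libraries: CDCA7 lost it without any of the 6 but UNT replicate 2, and LIG1 without any but SRM_IC50 replicate 3. The count of 4 was 2 without UNT replicate 1, UNT replicate 3, SRM_IC50 replicate 1 or SRM_IC50 replicate 2, and 3 without either of the other libraries. HELLS had 112, 124 and 146 CPM at SRM_IC50 and 100, 111 and 114 CPM in UNT, overlapping groups, and did not pass (log2 0.23, adjusted p = 0.168, edgeR). DPPA3, a germline and oocyte factor that keeps UHRF1 off chromatin, had 4 counts in all at SRM_IC50 and 1 count in UNT and was not tested.

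Against SRM_IC25, 5 of the 7 tested maintenance partners were higher at SRM_IC50 and 0 lower, with a median of 0.39 beside -0.02 over all genes. Of all tested genes 26.9% passed there, 13.7% higher and 13.2% lower. CDCA7L was at 0.95 (adjusted p = 6.95e-06), ZBTB24 at 0.62 (adjusted p = 0.000348) and HELLS at 0.50 (adjusted p = 0.00206, edgeR). Between FPM_IC50 and SRM_IC50, 6 of 7 were lower with FPM, with a median of -0.38 beside 0.02 over all genes. Of all tested genes 39.3% passed there, 16.2% lower and 23.2% higher. None of the 7 passed at FPM_IC25, FPM_IC50 or SRM_IC25 against UNT in edgeR, with 1, 1 and 2 at an unadjusted p under 0.05 and 0, 0 and 1 in DESeq2. Of all tested genes 14.2%, 13.6% and 4.37% passed in edgeR. Of those with no gene on the other strand within 5 kb, 0.824%, 0.0236% and 1.25% passed. CDCA7L and LIG1 share exons with an opposite-strand gene, so their values in the FPM libraries carry the antisense difference given above, whose part was not tested.

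**Figure D4:**
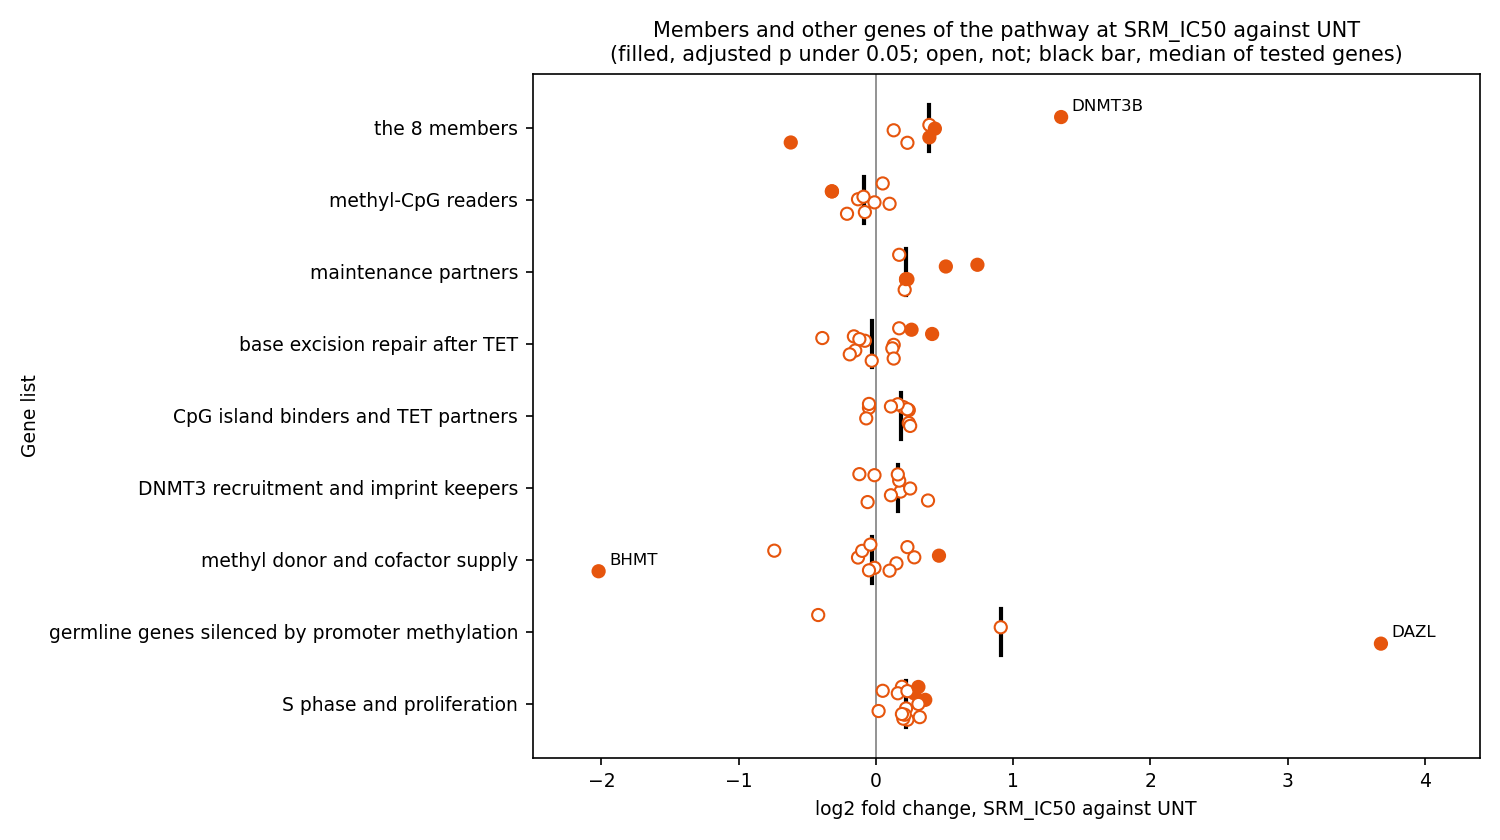
Log2 fold change at SRM_IC50 against UNT for the tested members and for the tested genes of 8 lists around DNA methylation; filled points passed an adjusted p of 0.05 (edgeR), open points did not, and black bars are medians. Most list medians lie between -0.09 and 0.22 while DNMT3B is at 1.35, and the points farthest out are DAZL (3.68) and BHMT (-2.02). DAZL passed the filter on low counts through SRM_IC50 alone.

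Of 9 tested readers of methylated CpG, MBD2 alone passed at SRM_IC50, lower with 21.7, 24.4 and 26.2 CPM against 28.8, 30.3 and 30.7 CPM in UNT (log2 -0.32, adjusted p = 0.0334, edgeR). The call was lost without UNT replicate 2, UNT replicate 3, SRM_IC50 replicate 1 or SRM_IC50 replicate 2. MBD2, which links methylated DNA to a deacetylase complex, was also lower against SRM_IC25 (-0.43, adjusted p = 0.004, edgeR), where its call held without any single library. The list includes UHRF2, the relative of UHRF1, which had 84.2, 81.5 and 68.1 CPM at SRM_IC50 and 91, 88.5 and 76 CPM in UNT. The median was -0.09. The count of 1 in 9 at SRM_IC50 against UNT was not above the 17.6% of all tested genes that passed.

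Of 13 genes that act after TET oxidation, 2 were higher at SRM_IC50 and 0 lower against UNT, with a median of -0.03. Of all tested genes 17.6% passed in this comparison, so the count was close to that share. NEIL2, a glycosylase, averaged 16 ± 0.789 CPM at SRM_IC50, against 12 ± 0.86 CPM in UNT (SD, n = 3 each; log2 0.41, adjusted p = 0.0166), and PARP1, a sensor of strand breaks, was at 0.26 (adjusted p = 0.0214, edgeR). NEIL2 lost its call without UNT replicate 1 or 2, and PARP1 without any UNT library or SRM_IC50 replicate 2, so that the count was 0 without UNT replicate 1 or 2, and 1 without UNT replicate 3 or SRM_IC50 replicate 2. TDG, the glycosylase that removes oxidised methylcytosine, had 83.7, 93.2 and 106 CPM at SRM_IC50 and 82.6, 89 and 88.2 CPM in UNT and did not pass (log2 0.12, adjusted p = 0.499, edgeR).

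Against SRM_IC25, which had 63.1, 69.4 and 73.8 CPM of TDG, the log2 difference of TDG at SRM_IC50 was 0.45 (adjusted p = 0.0034, edgeR). In that comparison 4 of the 13 were higher and 3 lower, 7 in all, and without SRM_IC50 replicate 2 the 7 became 4. Of all tested genes 26.9% passed there, 13.7% higher and 13.2% lower. At FPM_IC50 against UNT, NEIL1 alone of the 13 was higher (0.63, adjusted p = 0.0167, edgeR), a call lost without UNT replicate 1 or 2 or FPM_IC50 replicate 1 or 3. Of all tested genes 13.6% passed at FPM_IC50 against UNT.

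Binders of unmethylated CpG islands and TET partners gave 0 of 10 calls at SRM_IC50 against UNT, where 17.6% of all tested genes passed. Their median was 0.18. At an unadjusted p under 0.05 the count was 1 (KDM2B), and DESeq2 gave 0. QSER1, which guards bivalent promoters with TET1, was at 0.25 (95% interval -0.09 to 0.59, adjusted p = 0.339, edgeR). Genes that recruit DNMT3 enzymes or keep imprints gave 0 of 9 calls in edgeR, 0 at an unadjusted p under 0.05 and 0 in DESeq2, with a median of 0.16.

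Supply of the methyl donor and of the TET cofactor was measured through 12 tested genes. At SRM_IC50 1 was higher and 1 lower against UNT in edgeR, with a median of -0.02, and DESeq2 called 4. Of all tested genes 17.6% passed in edgeR, so the edgeR count of 2 in 12 was close to that share. IDH1, which makes the 2-oxoglutarate that TET enzymes need, had 237, 255 and 273 CPM at SRM_IC50, against 177, 192 and 188 CPM in UNT (log2 0.46, adjusted p = 0.000407, edgeR). All 3 exposed libraries were higher. IDH1 was lower than UNT in the other 3 exposures, at -0.28 (FPM_IC25, adjusted p = 0.02), -0.29 (FPM_IC50, 0.013) and -0.33 (SRM_IC25, 0.027) in edgeR, and it shares exons with an opposite-strand gene. Unlike the SRM_IC50 call, which held without any single library, these 3 calls were lost without UNT replicate 2. The FPM_IC25 call was also lost without UNT replicate 3, FPM_IC25 replicate 2 or FPM_IC25 replicate 3, the FPM_IC50 call without FPM_IC50 replicate 1, and the SRM_IC25 call without UNT replicate 3 or any SRM_IC25 library.

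BHMT, which remethylates homocysteine with betaine, had 1.59, 0.916 and 1.41 CPM at SRM_IC50, against 3.48, 4.76 and 7.99 CPM in UNT. It was lower in every SRM_IC50 library than in any UNT library, and stood at -2.02 on the log2 scale (SE 0.46, adjusted p = 0.00544, edgeR). It stood at -1.37 at FPM_IC25 (adjusted p = 0.0401, lost without UNT replicate 2 or 3 or FPM_IC25 replicate 1 or 2), and at 0.16 (adjusted p = 0.862) at FPM_IC50. BHMT, too, shares exons with an opposite-strand gene.

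Germline genes that promoter methylation is known to silence were mostly too low to test: 3 of 15 passed the filter. DAZL, an RNA-binding protein of germ cells, had 0.576, 0.916 and 0.967 CPM at SRM_IC50, against 0, 0.176 and 0 CPM in UNT. That is 46 counts against 3 in UNT, a ratio of 13.9 per total count with an exact interval of 4.46 to 69.7 that covers counting error only (adjusted p = 0.00103, edgeR). It remained under 1 CPM everywhere. DAZL had 11 to 18 counts in each SRM_IC50 library and at most 3 in any other, so SRM_IC50 alone carried it past the filter. Its p-value and interval were thus conditioned on that group being high, and no support is drawn from them. SYCP3, a protein of the meiotic chromosome axis, was higher at FPM_IC25 (2.62, adjusted p = 0.00144) and FPM_IC50 (3.10, adjusted p = 0.000323) against UNT in edgeR, at means of 0.728 and 1.04 CPM against 0.116 CPM in UNT. Its exons overlap an opposite-strand gene, and the part of the antisense counts in that difference was not tested. The filter kept SYCP3 through FPM libraries alone (0.418 to 1.46 CPM, at most 0.176 CPM elsewhere), so its p-values were conditioned in the same way.

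Markers of pluripotent cells and of S phase differed between the same groups, and their part in the members' results was not tested. In bulk RNA, more cells of a type and more RNA per cell cannot be told apart. The summed level of 10 pluripotency markers was 2626 to 3170 CPM at SRM_IC50, against 1761 to 2015 CPM in UNT, and 7 of the 10 were higher, with none at 0. POU5F1 was at 1.42 (adjusted p = 2.13e-05) and NANOG at 1.64 (adjusted p = 2.66e-06) on the log2 scale in edgeR, beside 1.35 for DNMT3B. In the other exposures the sum was 1326 to 1352 CPM at FPM_IC25, 1334 to 1664 CPM at FPM_IC50 and 1362 to 1425 CPM at SRM_IC25.

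The pluripotency sum in those 3 groups lay below UNT, while DNMT3B there overlapped UNT. Within SRM_IC50 the libraries were not ordered alike: POU5F1 had 562, 525 and 778 CPM in replicates 1, 2 and 3, where DNMT3B had 340, 318 and 251 CPM. In UNT POU5F1 had 189, 252 and 255 CPM and DNMT3B 138, 120 and 99.5 CPM, which are opposite orders. NANOG had 19, 16.2 and 20.4 CPM at SRM_IC50 and 4.83, 6.93 and 6.1 CPM in UNT. The other pluripotency markers are not given by library. In both groups replicate 3 was the lowest for 7 of 7 tested members. These orders are given as values only, and the part of cell content in them was not tested.

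Markers of amnion and trophoblast summed to 375 to 410 CPM at SRM_IC50, against 1350 to 1588 CPM in UNT, and 9 of 10 were lower. Those of mesenchyme and matrix summed to 538 to 696 CPM, against 760 to 796 CPM in UNT, with 2 of 8 higher and 3 lower (LUM, DCN and COL3A1), and those of neuroectoderm to 112 to 116 CPM, against 244 to 283 CPM in UNT, with 1 higher and 4 lower of 6. In the osteoblast list, whose sum is given above, 1 of 6 tested genes was higher (ALPL, 0.87) and 2 were lower (DLX5, -1.14, and MSX2, -0.70), with a median log2 fold change of -0.10. The 15 S-phase and proliferation genes summed to 3596 to 3680 CPM at SRM_IC50, against 3072 to 3281 CPM in UNT, with 3 of 15 higher (RRM2, MCM5 and MCM2; MCM2 not without UNT replicate 2 or 3 or SRM_IC50 replicate 1 or 2) and a median of 0.22, the same median as the maintenance partners. DESeq2 called 8 of these 15. Against SRM_IC25 10 of these 15 were higher at SRM_IC50, with a median of 0.32. Of all tested genes 7.96% were called higher and 9.59% lower at SRM_IC50 against UNT, and 13.7% were called higher against SRM_IC25.

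Genes whose pattern was most like a member's were ranked by the root mean square difference of centred log2 CPM over the 15 libraries, among 15861 eligible genes. For DNMT3B they were GFPT2, an enzyme of hexosamine synthesis, with 0.0781, CYP2S1, a cytochrome P450, with 0.0935, and ATCAY, a neuronal protein, with 0.15. GFPT2 differed from UNT by 1.27 on the log2 scale at SRM_IC50, and by -0.04, -0.06 and -0.08 at FPM_IC25, FPM_IC50 and SRM_IC25. Like DNMT3B, it was high at SRM_IC50 and close to UNT elsewhere.

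For TET2 the closest included NMNAT2, an enzyme of NAD synthesis in axons, with 0.0863, and ADAMTS12, a metalloproteinase of the ADAMTS family, with 0.0974. They differed from UNT by -0.65 and -0.70 on the log2 scale at SRM_IC50. For UHRF1 they were LIMK1, a kinase of the actin cytoskeleton, with 0.0774, DNMT3A with 0.0781 and MTCL1, a microtubule crosslinker, with 0.0849. Likeness was measured over the same libraries that show the differences, and it is a description.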

How the data were processed

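The authors deposited whole-number read counts per gene for 15 libraries, and FPKM values, which equal the deposited count per kilobase and 1000000 of the library total in 100% of 401178 values (tolerance 0.001). The submitters' processing notes name GRCh38, HISAT2 2.2.1, SAMtools 1.10, featureCounts (Subread 2.0.15), FastQC 0.11.7 and DESeq2. Neither the annotation nor the strand setting is given in the sources used here. Listed lengths of all 8 members equal their exonic length in GENCODE release 29, from which positions were taken; 1 column, the length, belongs to no sample. The library kit was directional, per the labels' protocols.

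Tests used R 4.3.3 and edgeR 4.0.16 on the counts: genes kept by filterByExpr, TMM factors, 5 group means fitted to all 15 libraries by robust quasi-likelihood, and Benjamini-Hochberg adjustment over 19012 genes at 0.05. Replicate libraries correlated at 0.982 to 0.994 (Pearson, log2 CPM) and differed beyond sampling noise (chi-square per gene 5.48 to 41.6), so each was counted. Members and gene lists were chosen with earlier results of these data known. Named genes are the members, up to 3 called genes per list with the smallest adjusted p in comparisons where a member was called, DPPA3, HELLS, CDCA7, TDG and QSER1, and the 3 most similar genes of the 3 members with the widest range of group means, among genes of at least 1 CPM on average; KDM2B, NEIL1, SYCP3, S1PR2, UHRF2, DNMT3L-AS1, POU5F1, NANOG, IBSP and BGLAP were named in addition, some of them after their values were seen. Alternatives were DESeq2 1.42.0, its size factors, no filter, replicate blocks, limma 3.58.1 on log2(FPKM + 1) and log2(FPKM + 0.1), only the groups compared, each replicate left out, a GC correction and genes without an opposite-strand gene. Of the genes most similar to TET2, 1 is not reported here. The scripts were tested on simulated data.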

Additional observations from a re-analysis of the deposited data

Results flagged for a closer look

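DNMT3B differed between the particles in its response to dose. The change from IC25 to IC50 was 1.28 larger on the log2 scale with SRM than with FPM (SE 0.19, adjusted p = 0.000246, edgeR's quasi-likelihood test of the interaction). Its log2 difference between IC50 and IC25 was 1.38 with SRM and 0.10 with FPM. All 3 libraries of SRM_IC50 were above all 3 of SRM_IC25, while the FPM groups overlapped. The mass doses of the particles differ at each inhibitory level, and the part of dose in the difference cannot be told apart from that of the particle.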

How the results depend on the processing

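Directions held for every called member value, and none of the 1035 alternative values of the members reversed; 914 kept their side of the threshold and direction, 14 lost a call, 23 gained one, and 84 changed sign without being called in either. DNMT3B passed under every alternative run in the 3 comparisons with SRM_IC50 and in the dose-by-particle test. With single replicates left out, the number of members called was 3 to 5 at SRM_IC50 against UNT (4 in the fit reported), 1 to 3 between the SRM doses (2), 4 to 6 between the particles at IC50 (4), 1 to 2 in the dose-by-particle test (1) and 2 to 4 over all groups (4). No label says that replicate numbers pair the samples, and not every pair deviated together: over 30 pairs of same-numbered libraries the correlation of deviations was -0.14 to 0.438, with 16 over 0.1, and 11 of 15 libraries correlated best with their own number. With the replicate number as a block, 1 member passed at SRM_IC25 against UNT (UHRF1, adjusted p = 0.0413, edgeR), 6 at SRM_IC50 against UNT (DNMT1, adjusted p = 0.0381, and TET1, 0.0461, in addition), 4 between the SRM doses and 3 in the dose-by-particle test. TET2 at SRM_IC50 against UNT lost its call in both limma fits (adjusted p 0.143 and 0.112), with only the groups compared (0.0759) and without the FPM libraries (0.057), an alternative chosen after seeing the data. Between the SRM doses 1 member was left in both limma fits, with only the groups compared and over genes with no opposite-strand gene. That restriction, which leaves 3 members to test, gave 2 at SRM_IC50 against UNT, 2 between the particles at IC50 and 2 over all groups. The dose-by-particle test gave 2 without a filter and 2 after GC correction, and the test over all groups gave 1 with limma on log2(FPKM + 1). The causes were not tested.

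Over all genes, SRM_IC25 against UNT gave 831 calls as reported, 1976 with DESeq2, 2718 with the block, 514 with limma on log2(FPKM + 1), 53 over genes with no opposite-strand gene, 319 without SRM_IC25 replicate 1, 2 without UNT replicate 3, and 0 when UNT replicate 2 or either other SRM_IC25 library was left out, after GC correction, with only the groups compared or without the FPM libraries. FPM_IC25 against UNT gave 2693, and 4079 with the block. Between the FPM doses 2 genes passed, and 0 to 116 under alternatives. Over the 4245 genes lacking a gene on the other strand within 5 kb, the share called was lower for FPM against UNT (0.824% at FPM_IC25 and 0.0236% at FPM_IC50, against 14.2% and 13.6% of all genes) and higher for SRM_IC50 against UNT (24.8%, against 17.6%) and between the SRM doses (32.2%, against 26.9%). In numbers, FPM_IC25 against UNT gave 35, FPM_IC50 against UNT 1 (2585 over all), SRM_IC50 against UNT 1051 (3337), the SRM doses 1367 (5115), the particles 0 at IC25 (1995) and 1449 at IC50 (7476), the dose-by-particle test 807 (2775) and the test over all groups 1481 (7758). Of 3132 alternative values of named list genes, 2740 stayed as reported, 364 lost and 8 gained a call, 20 changed sign uncalled and 0 reversed. Depth limits DNMT3L, DPPA3 and most germline genes, which had too few counts to test.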
